A study of Mus musculus with 15 samples.

Results

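The motile cilia axoneme genes of the lung were taken as the 58 genes, of 14766 protein-coding genes in the deposited table, whose symbols begin with Dnah, Dnai, Dnaaf, Cfap, Rsph, Tekt or Drc followed by a digit. RNA sequencing had been done on whole lung of wild-type mice in 3 groups of 5, as biological replicates in batch 1. OVA_Rg3 mice were induced with ovalbumin (OVA), an egg protein used to cause allergic airway inflammation, by intraperitoneal injection and aerosol, and were dosed by gavage with ginsenoside Rg3 at 20 mg/kg. Rg3 is a triterpenoid saponin of ginseng. OVA mice had the induction alone, and control mice had saline with neither OVA nor Rg3. Each library is whole tissue, so the axoneme transcripts come from a minority of airway cells. Fewer ciliated cells and less RNA per ciliated cell cannot be told apart in such samples.

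A motile cilium beats because dynein motors slide neighbouring doublet microtubules of its core, the axoneme. Outer dynein arms set the power and frequency of the beat and inner arms its shape. Radial spokes and the central apparatus pass signals to the arms, the nexin-dynein regulatory complex links the doublets, and tektins and other proteins line the inside of the doublets. Assembly factors fold the dynein arms in the cytoplasm before transport. In the lung these genes are characteristic of the multiciliated cells of the airway, which clear mucus, and inherited loss of many of them causes primary ciliary dyskinesia.

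Transcripts of motile cilia were lower in both OVA groups than in control lungs, and OVA_Rg3 lungs did not differ from OVA lungs past the threshold for any of them. Values are FPKM (reads per length of transcript, relative to the reads of the library) divided by a median-ratio factor per library, called scaled FPKM below. Of the 58 genes, 52 reached a deposited value of 1 in 5 or more libraries and were tested with limma on log2(scaled FPKM + 1), with Benjamini-Hochberg adjustment over all 12137 genes tested. In OVA against control lungs 41 of the 52 fell at an adjusted p under 0.05 and 0 rose, where 10.5% of all genes tested fell and 5.4% rose (15.9% in either direction). In OVA_Rg3 against control lungs 39 fell and 0 rose, where 5.9% of all genes fell and 3.01% rose (8.91% in either direction). The median log2 change over the 52 was -1.48 in OVA lungs and -1.36 in OVA_Rg3 lungs, beside -0.09 and -0.08 over all genes tested. As ratios of group means of scaled FPKM, the median gene stood at 0.300 of control in OVA lungs and at 0.332 of control in OVA_Rg3 lungs, where the median of all genes tested stood at 0.930 and 0.956. Both comparisons use the same 5 control libraries.

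The filter bears on these counts. Of the 52 tested genes, 10 had a deposited value of 1 or more in fewer than 5 of the 10 OVA and OVA_Rg3 libraries and were tested only because their control libraries were higher. These were Dnah1, Dnah2, Dnah7a, Dnah7b, Dnah9, Dnah11, Cfap54, Cfap57, Cfap61 and Rsph14. All 10 were called lower in both comparisons with control, and a gene admitted in this way passed through being high in control, so those 10 calls are given as a description. The other 42 would have passed the filter on their OVA and OVA_Rg3 libraries alone. Of these 42, 31 fell in OVA lungs and 29 in OVA_Rg3 lungs, where 9.28% and 5.0% of all genes that passed in that way fell. With no filter, all 58 genes entered and 40 fell in OVA lungs and 39 in OVA_Rg3 lungs, where 1224 and 646 of all 14753 genes fell.

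**Figure D1:**
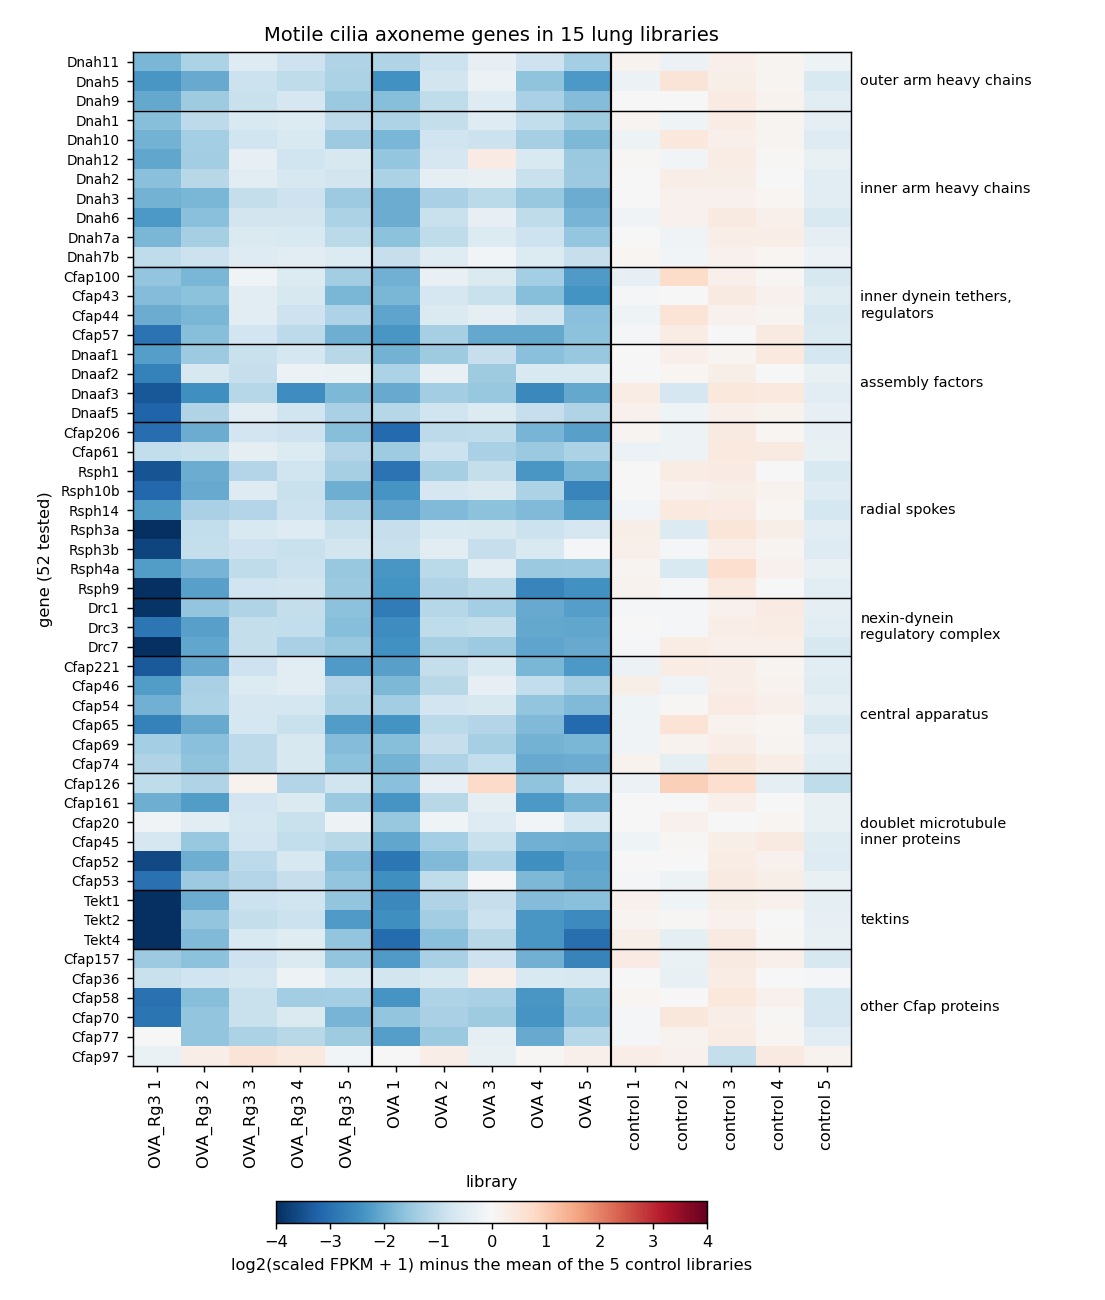
Each row is 1 of the 52 tested axoneme genes, grouped by structure, and each column is 1 library. Colour is log2(scaled FPKM + 1) minus the mean of the 5 control libraries, with the scale ending at -4 and 4. Nearly every row is blue in the OVA_Rg3 and OVA columns, OVA_Rg3 1 and OVA 1 are darkest, and Cfap97 is the row that stays pale.

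The libraries differed in depth and in makeup. Low values fell on steps that imply 0.217 M reads in OVA_Rg3 1 and 0.832 M in control 2, against 1.61 to 9.05 M in the other 13 libraries. Apart from control 2, depth followed group. It was 9.05, 6.64, 7.57 and 6.24 M in control 1, 3, 4 and 5. It was 2.84 to 3.62 M in OVA libraries and 0.217 to 3.89 M in OVA_Rg3 libraries. In OVA_Rg3 1 28 of the 58 genes were listed at 0 (48.3%), beside 22.0% of all genes of the table. For 15 of those 28, the other OVA_Rg3 libraries all lay below the value that 3 reads would give in OVA_Rg3 1, so a 0 there was not distinguishable from their level at this depth. Mitochondrially encoded transcripts took 41.6 to 70.4% of the summed deposited values in OVA_Rg3 lungs, 46.2 to 79.8% in OVA lungs and 18.9 to 29.3% in control lungs. Liver transcripts (5 listed) summed highest in OVA_Rg3 1, OVA 4 and control 2, with 1558, 318 and 327 scaled FPKM, and so did skeletal muscle transcripts, with 721, 147 and 149.8. Testis germ cells also build axonemes, and 5 of 6 of their markers were in the table. Their sum reached 40.8 in OVA_Rg3 1 and 43.0 in OVA 4, with 22.5 in OVA 1, against at most 6.0 in the other OVA_Rg3 and OVA lungs and at most 2.61 in control lungs. The part of these differences in the results below was not tested. Without OVA_Rg3 1, OVA 4 and control 2, 41 of 51 genes were lower in OVA lungs and 27 of 51 in OVA_Rg3 lungs. Of all 11800 genes tested in that setting, 1661 and 633 were lower.

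Promoters of axoneme genes are known for the X-box, the site bound by RFX transcription factors, which act with Foxj1 in multiciliated cells. Of the 58 genes, 47 matched a RefSeq promoter table of GRCm38.p6, giving 54 windows of 250 bases before to 50 bases after a transcription start. The half-site GTTGCC, searched on both strands, was in 20 of the 54 windows (37.0%) and in 12.5% of all 32851 windows. Longer forms can overlap the half-site. The extended half-site GTTGCCATG was in 3 windows (5.56%) against 0.773% of all windows. Of 5 longer forms of the X-box, named here without their letters, the one with both arms degenerate was in 4 windows (7.41% against 0.849%) and the spaced single arm in 12 (22.2% against 1.89%). The other 3, with both arms more strictly spelled, were in 0 of the 54 windows and in 0.07%, 0.0944% and 0.451% of all windows. The forkhead letters GTAAACA were in 3 windows (5.56%) against 3.65%, and TGTTTGT in 1 (1.85%) against 6.61%. All 9 letter patterns were searched after the expression values were known, and a match is a description of the letters, not of a bound site. Before the start, 14 genes held the half-site, 4 to 214 bases away from it. The 60 bases around or up to the match nearest the start are printed 5′ to 3′ on the strand of the gene for 10 of them, chosen after their values were seen to show the structures described next, with the match in capitals (GTTGCC, or GGCAAC where it lies on the other strand).
Dnah10, chr5:124725025-124725084, plus strand: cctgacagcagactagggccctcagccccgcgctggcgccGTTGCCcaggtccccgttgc
Drc1, chr5:30281333-30281392, plus strand: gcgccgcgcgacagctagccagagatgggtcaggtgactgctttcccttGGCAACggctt
Tekt1, chr11:72361883-72361942, minus strand: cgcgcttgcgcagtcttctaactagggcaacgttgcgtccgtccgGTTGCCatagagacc
Tekt2, chr4:126325689-126325748, minus strand: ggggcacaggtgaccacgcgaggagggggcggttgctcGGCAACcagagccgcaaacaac
Cfap46, chr7:139683816-139683875, minus strand: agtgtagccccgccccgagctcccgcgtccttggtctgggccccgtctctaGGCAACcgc
Cfap74, chr4:155409176-155409235, plus strand: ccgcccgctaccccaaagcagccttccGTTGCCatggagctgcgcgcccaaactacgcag
Cfap44, chr16:44394739-44394798, plus strand: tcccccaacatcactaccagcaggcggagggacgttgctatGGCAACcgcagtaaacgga
Cfap161, chr7:83794846-83794905, minus strand: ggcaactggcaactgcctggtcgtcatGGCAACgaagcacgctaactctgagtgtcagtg
Cfap58, chr19:47937626-47937685, plus strand: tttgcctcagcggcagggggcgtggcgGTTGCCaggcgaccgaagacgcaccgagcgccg
Dnaaf2, chr12:69198430-69198489, minus strand: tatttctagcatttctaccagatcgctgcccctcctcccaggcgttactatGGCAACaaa
Of these 10 genes, Tekt1, Cfap44 and Dnaaf2 were not called in OVA lungs. Of all 14, 9 were called and 5 were not, among them Dnah7c, which was not tested. Of the 47 matched genes 32 were called, so the letters occur beside called and uncalled genes alike.

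The outer dynein arm was represented by 3 tested heavy chains, the motor subunits themselves, and all 3 fell in both comparisons with control. Dnah9 and Dnah11 were tested only through their control libraries, and Dnah5 was not. Dnah5 (ENSMUSG00000022262.8, chromosome 15, 28203752 to 28472052), a heavy chain often mutated in primary ciliary dyskinesia, had 1.30, 1.82, 5.28, 4.62 and 3.77 in OVA_Rg3 lungs, 1.16, 5.86, 8.76, 2.76 and 1.33 in OVA lungs and 8.77, 15.4, 12.5, 11.4 and 6.51 in control lungs, in scaled FPKM. The control libraries lay above the OVA_Rg3 libraries without overlap, while OVA 3 reached into the control range. Dnah5 changed by a log2 of -1.46 ± 0.41 (SE) in OVA lungs (limma adjusted p = 0.0259) and -1.50 ± 0.41 (SE) in OVA_Rg3 lungs (limma adjusted p = 0.0344). These calls for Dnah5 were lost in 7 and 10 of 27 alternative settings. Dnah9, in human airway the partner chain along the outer part of the cilium, had 0, 0.56, 1.22, 1.60 and 0.48 in OVA_Rg3 lungs, 0.27, 1.05, 1.93, 0.70 and 0.24 in OVA lungs and 3.13, 3.18, 4.16, 3.57 and 2.03 in control lungs. Both OVA groups lay below every control library. Its log2 change was -1.25 ± 0.28 (SE) in OVA lungs and -1.31 ± 0.28 (SE) in OVA_Rg3 lungs (limma adjusted p = 0.00846 and 0.0149). Dnah11, the corresponding chain near the base of the cilium, changed by -0.92 and -1.13 in the same comparisons. Dnah8, the outer arm chain of sperm, was too low to be tested, at 0.86, 0.54, 0.70, 0.23 and 0.57 in OVA_Rg3 lungs, 0.21, 0.40, 0.55, 0.51 and 0.63 in OVA lungs and 0.48, 0.11, 0.50, 0.37 and 0.24 in control lungs. Its groups overlapped, and unlike the airway chains its control values were not the higher ones.

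The inner arm chains moved in the same direction, with 7 of 8 tested genes lower in each comparison with control. Of those 7, Dnah1, Dnah2, Dnah7a and Dnah7b were tested only through their control libraries. Dnah3 (ENSMUSG00000052273.4, chromosome 7, 119922671 to 120095280) had 0.71, 0.81, 2.31, 2.59 and 1.35 in OVA_Rg3 lungs, 0.62, 1.59, 2.01, 1.23 and 0.60 in OVA lungs and 5.35, 6.28, 6.27, 5.71 and 3.77 in control lungs. The groups with OVA did not overlap with control, and Dnah3 had the smallest p of the inner arm chains in both comparisons. It changed by a log2 of -1.58 ± 0.25 (SE) in OVA lungs (limma adjusted p = 0.00141) and -1.39 ± 0.25 (SE) in OVA_Rg3 lungs (limma adjusted p = 0.0069). Dnah2 and Dnah10, which together form the 2-headed inner arm, changed by -0.85 and -1.32 in OVA lungs and by -0.91 and -1.21 in OVA_Rg3 lungs, all called. Dnah6, the inner arm chain of highest level, changed by -1.22 and -1.34. Dnah12 was the exception that was called in neither comparison, with 0.42, 1.26, 3.75, 2.43 and 2.82 in OVA_Rg3 lungs, 1.05, 2.74, 6.45, 2.92 and 1.11 in OVA lungs and 5.19, 4.46, 6.37, 5.09 and 3.88 in control lungs. OVA 3 was above every control library there, and the log2 changes were -0.80 in OVA lungs and -1.04 in OVA_Rg3 lungs (limma adjusted p = 0.152 and 0.0789). Dnah7a, Dnah7b and Dnah7c are near-identical copies on chromosome 1, so reads may have been split among them and their separate values are uncertain. Dnah7a and Dnah7b were called lower in both comparisons, and Dnah7c, at 0.09 to 0.62 in both OVA groups and 0.63 to 1.43 in control lungs, was not tested.

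The heavy chains are long and low in FPKM, and the added 1 shortens their changes on the log2 scale. The median change in OVA lungs was -1.07 over inner arm chains and -1.91 over tektins with a pseudocount of 1, and -1.71 and -2.13 with a pseudocount of 0.1. With that pseudocount the axoneme genes called lower were 21 in OVA lungs, in place of 41, and 9 in OVA_Rg3 lungs, in place of 39. Of all 12137 genes, 902 were called lower in OVA lungs, in place of 1278, and 282 in OVA_Rg3 lungs, in place of 716. As ratios of means, OVA to control, the medians were 0.364 for outer arm chains, 0.333 for inner arm chains, 0.291 for radial spokes, 0.238 for the nexin-dynein regulatory complex, 0.279 for the central apparatus and 0.262 for tektins. The order of structures on the log2 scale is therefore partly one of level. No test of a difference between structures was run.

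**Figure D2:**
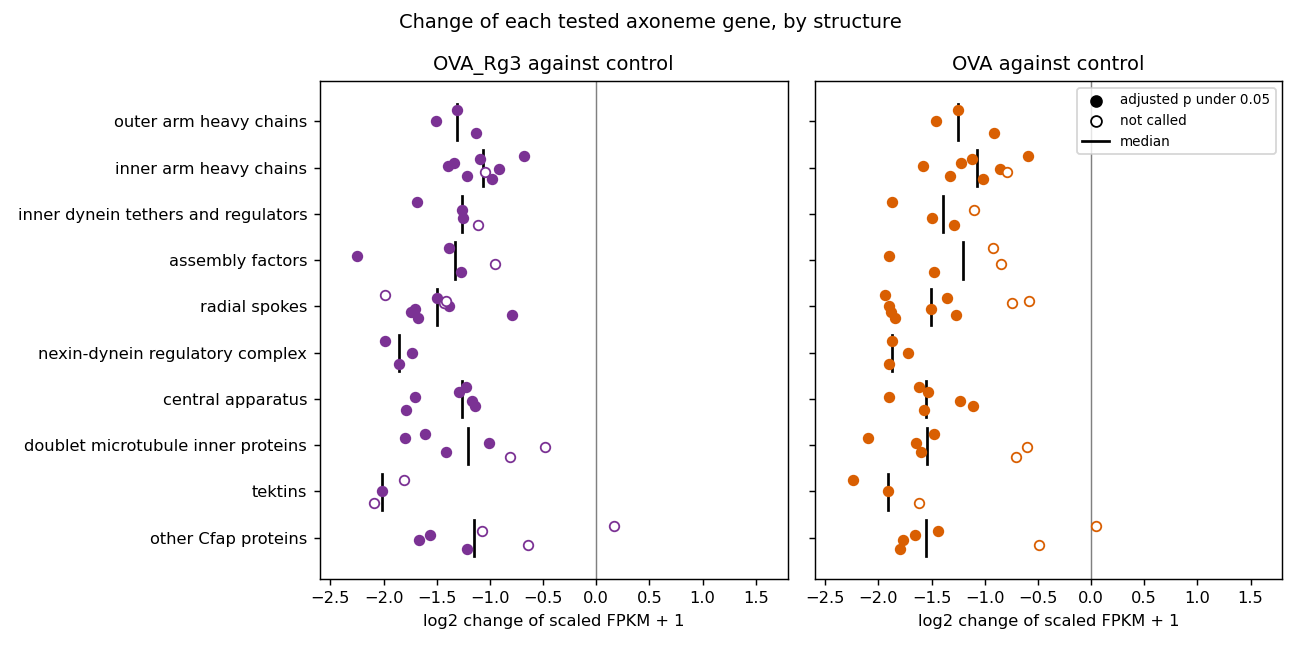
Each point is 1 of the 52 tested genes, placed by its log2 change of scaled FPKM + 1 in OVA_Rg3 against control (left) and OVA against control (right), with the structure down the page. Filled points passed an adjusted p under 0.05, open points did not, and a bar is the median of its structure. All but Cfap97 lie left of 0 in both panels, and Cfap97 too is below 0 in the values as deposited.

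Proteins that tether or regulate inner dyneins were lower as well, with 3 of 4 called in each comparison. Cfap57, which in ciliates and algae is needed for a subset of inner arms, was tested only through its control libraries. It had 0, 1.38, 3.58, 2.74 and 1.01 in OVA_Rg3 lungs, 0.56, 2.09, 0.86, 0.90 and 1.51 in OVA lungs and 6.51, 8.48, 6.77, 8.94 and 4.19 in control lungs. No OVA or OVA_Rg3 library reached the control range. It changed by a log2 of -1.88 ± 0.35 (SE) in OVA lungs and -1.69 ± 0.35 (SE) in OVA_Rg3 lungs (limma adjusted p = 0.00308 and 0.0122). Cfap43 and Cfap44 form the tether of the 2-headed inner arm. Cfap43 changed by -1.49 in OVA lungs and -1.26 in OVA_Rg3 lungs, both called. Cfap44 had a log2 change of -1.10 in OVA lungs, just missing the threshold (limma adjusted p = 0.0545), and of -1.26 in OVA_Rg3 lungs, just within it (limma adjusted p = 0.0441). That call for Cfap44 was lost in 13 of 27 alternative settings. Cfap100, known in algae as an inner arm regulator, stood the other way round, at -1.28 (limma adjusted p = 0.0437) and -1.11 (limma adjusted p = 0.0995). The call for Cfap100 in OVA lungs was lost in 15 of 27 alternative settings. Its partner Cfap73 was not tested, with 6 libraries listed at 0 and its highest values, 1.98, 3.17 and 4.17, in control lungs 1, 3 and 4.

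Among the dynein assembly factors, Dnaaf1 and Dnaaf3 fell in both comparisons, Dnaaf5 passed the threshold in OVA_Rg3 lungs and Dnaaf2 in neither. Dnaaf3 (ENSMUSG00000055809.7, chromosome 7, 4522933 to 4532453) had 0, 0.91, 3.78, 0.90 and 2.06 in OVA_Rg3 lungs, 1.61, 3.05, 2.71, 0.78 and 1.57 in OVA lungs and 12.0, 5.57, 13.2, 12.8 and 6.85 in control lungs. The highest value of either OVA group was below the lowest control value. It changed by a log2 of -1.90 ± 0.37 (SE) in OVA lungs (limma adjusted p = 0.00417) and -2.25 ± 0.37 (SE) in OVA_Rg3 lungs (limma adjusted p = 0.00487), the lowest log2 change of the tested axoneme genes in OVA_Rg3 lungs. Dnaaf5, a scaffold of dynein preassembly, had 0, 2.95, 5.88, 4.28 and 2.68 in OVA_Rg3 lungs, 3.13, 4.24, 5.25, 3.85 and 2.95 in OVA lungs and 9.23, 7.07, 9.53, 9.0 and 6.32 in control lungs. Its 5 OVA and 5 OVA_Rg3 values all lay below control, yet the log2 change in OVA lungs was -0.92 with a limma adjusted p of 0.116, against -1.38 and 0.0355 in OVA_Rg3 lungs. Dnaaf2 had log2 changes of -0.85 and -0.95 (limma adjusted p = 0.155 and 0.132). Dnaaf2 and Dnaaf5 were among the genes listed at 0 in OVA_Rg3 1.

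**Figure D3:**
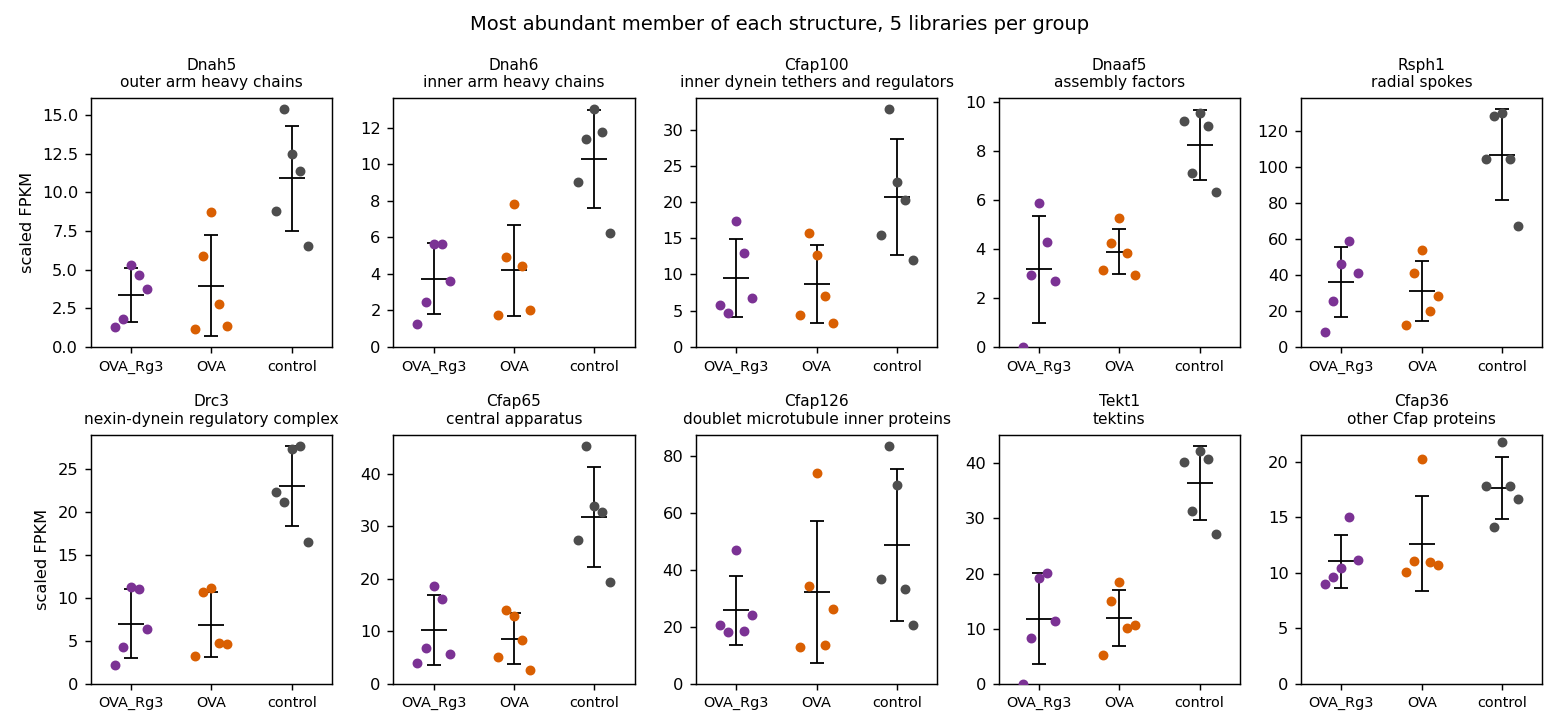
Scaled FPKM of the gene of highest mean level in each of 10 structures, with OVA_Rg3, OVA and control libraries as points (5 each) and the mean and SD as bars. Values listed at 0, such as Dnaaf5 and Tekt1 in OVA_Rg3 1, enter the mean. Rsph1 reaches at most 59.1 in OVA_Rg3 and 53.6 in OVA lungs and at least 67.2 in control lungs, while Dnah5, Dnah6, Cfap100, Cfap126 and Cfap36 have OVA or OVA_Rg3 libraries in the control range.

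Of 9 radial spoke genes tested, 7 fell in OVA lungs and 6 in OVA_Rg3 lungs. The gene of highest FPKM in the whole set was among them. Rsph1 (ENSMUSG00000024033.9, chromosome 17, 31255019 to 31277356), a spoke head protein, had 8.52, 25.6, 46.0, 59.1 and 41.3 in OVA_Rg3 lungs, 12.4, 41.0, 53.6, 20.0 and 28.3 in OVA lungs and 104, 128, 130.1, 104 and 67.2 in control lungs. The control range began above the highest value of both other groups. On the log2 scale it changed by -1.88 ± 0.45 (SE) in OVA lungs and -1.74 ± 0.45 (SE) in OVA_Rg3 lungs (limma adjusted p = 0.0123 and 0.0289). Rsph4a and Rsph9, the other main head proteins, fell in OVA lungs by 1.35 and 1.94, and Rsph4a fell in OVA_Rg3 lungs by 1.5. Rsph9 in OVA_Rg3 lungs had -1.99, with a limma adjusted p of 0.0519. Its values were 0, 5.10, 14.9, 15.6 and 8.88 in OVA_Rg3 lungs, 4.21, 11.0, 12.1, 3.45 and 4.12 in OVA lungs and 29.6, 24.9, 34.9, 26.0 and 19.4 in control lungs. Both OVA groups lay below control, and the 0 of OVA_Rg3 1 widened their spread. The call for Rsph9 in OVA lungs was lost in 10 of 27 alternative settings.

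Rsph14 and Cfap61 were tested only through their control libraries, since 0 OVA libraries and 3 or fewer OVA_Rg3 libraries reached a deposited value of 1, so their values are given as a description. Rsph14 (ENSMUSG00000009070.14, chromosome 10, 74957477 to 75032586) had 0, 0.92, 1.10, 1.60 and 0.90 in OVA_Rg3 lungs, 0.10, 0.40, 0.54, 0.40 and 0 in OVA lungs and 3.42, 5.28, 5.02, 4.01 and 1.90 in control lungs. The OVA values were at or near 0, and control was above both other groups. The log2 changes were -1.90 ± 0.26 (SE) and -1.39 ± 0.26 (SE) (limma adjusted p = 0.000675 and 0.00835). Cfap61, of the complex at the base of a spoke, had 0.48, 0.58, 1.29, 1.02 and 0.32 in OVA_Rg3 lungs, 0.098, 0.62, 0.20, 0.062 and 0.22 in OVA lungs and 1.53, 1.55, 2.83, 2.82 and 1.38 in control lungs. Its OVA and OVA_Rg3 libraries lay below control, and the log2 changes were -1.27 and -0.79, both called. Cfap206, a spoke-associated protein, changed by -1.84 and -1.67 and Rsph10b by -1.50 and -1.71, also called in both.

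The spoke stalk genes Rsph3a and Rsph3b are near-identical copies on chromosome 17 and their separate values are uncertain. Rsph3b had 0, 5.65, 6.16, 5.90 and 6.72 in OVA_Rg3 lungs, 5.87, 8.52, 5.67, 7.40 and 11.1 in OVA lungs and 13.8, 11.0, 14.4, 12.6 and 8.02 in control lungs. Outside OVA_Rg3 1 the OVA_Rg3 values kept to a narrow band below control, while OVA 2 and OVA 5 reached the control range. The log2 change was -0.59 in OVA lungs and -1.41 in OVA_Rg3 lungs (limma adjusted p = 0.423 and 0.0608). Rsph3a had -0.74 and -1.43 (limma adjusted p = 0.386 and 0.1). Neither copy was called in either comparison.

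All 3 tested genes of the nexin-dynein regulatory complex fell in both comparisons with control. Drc1 (ENSMUSG00000073102.7, chromosome 5, 30281388 to 30366695), a base-plate subunit without which the complex does not assemble, had 0, 4.10, 5.64, 6.94 and 3.94 in OVA_Rg3 lungs, 1.22, 5.97, 4.95, 2.79 and 2.31 in OVA lungs and 13.8, 13.4, 16.4, 18.1 and 10.7 in control lungs. The lowest control value was above every value of the other groups. The log2 changes were -1.90 ± 0.46 (SE) in OVA lungs and -1.86 ± 0.46 (SE) in OVA_Rg3 lungs (limma adjusted p = 0.0127 and 0.0241). Drc3 had 2.18, 4.26, 11.3, 11.0 and 6.32 in OVA_Rg3 lungs, 3.25, 10.7, 11.1, 4.69 and 4.59 in OVA lungs and 22.4, 21.2, 27.4, 27.8 and 16.5 in control lungs, again with no overlap, and changed by -1.72 and -1.74. Drc7 changed by -1.87 and -1.98 (limma adjusted p = 0.0125 and 0.0187).

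The central apparatus, the pair of single microtubules and their projections at the centre of the axoneme, had 6 of 6 tested genes lower in each comparison, of which Cfap54 was tested only through its control libraries. Cfap69 (ENSMUSG00000040473.15, chromosome 5, 5579278 to 5664239) had 3.18, 2.43, 4.27, 5.90 and 2.26 in OVA_Rg3 lungs, 2.33, 4.76, 3.32, 1.90 and 2.04 in OVA lungs and 8.77, 10.8, 12.1, 10.6 and 7.5 in control lungs. Both OVA groups lay below control without overlap, and the log2 changes were -1.54 ± 0.24 (SE) and -1.29 ± 0.24 (SE) in OVA and OVA_Rg3 lungs (limma adjusted p = 0.00137 and 0.00824). Cfap65, of highest level in this structure, had 3.90, 6.75, 18.6, 16.2 and 5.74 in OVA_Rg3 lungs, 4.98, 14.1, 13, 8.29 and 2.67 in OVA lungs and 27.4, 45.3, 33.8, 32.7 and 19.4 in control lungs. OVA_Rg3 3 came within a small margin of control 5, and no library crossed. It changed by -1.90 and -1.70. Cfap46, Cfap54, Cfap74 and Cfap221, which lie together in a projection of the central pair, changed by -1.11, -1.23, -1.62 and -1.57 in OVA lungs. In OVA_Rg3 lungs the same genes changed by -1.14, -1.17, -1.23 and -1.78.

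Proteins inside the doublet microtubules were divided. Cfap45, Cfap52, Cfap53 and Cfap161 fell in both comparisons, and Cfap20 and Cfap126 in neither. Cfap52 (ENSMUSG00000020904.11, chromosome 11, 67924806 to 67965651) had 0, 2.14, 4.84, 6.75 and 2.69 in OVA_Rg3 lungs, 0.64, 2.55, 4.14, 1.21 and 1.80 in OVA lungs and 11.3, 11.4, 14, 12.8 and 7.53 in control lungs. No library of either OVA group reached the control range, and the log2 change was -2.10 ± 0.44 (SE) in OVA lungs and -1.80 ± 0.44 (SE) in OVA_Rg3 lungs (limma adjusted p = 0.00654 and 0.0236). Cfap126 (Flattop), which takes part in placing basal bodies, had 20.6, 18.2, 47.1, 18.6 and 24.2 in OVA_Rg3 lungs, 12.7, 34.5, 74.0, 13.5 and 26.3 in OVA lungs and 36.7, 83.7, 69.7, 33.3 and 20.6 in control lungs. Its values were scattered in all 3 groups, with OVA 3 and control 2 highest, and its log2 change was -0.71 ± 0.46 (SE) and -0.82 ± 0.46 (SE) (limma adjusted p = 0.342 and 0.291). Cfap20 had -0.61 and -0.48, with levels of 4.44 to 8.0 in OVA_Rg3 lungs, 2.52 to 8.24 in OVA lungs and 7.21 to 10.3 in control lungs.

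The tektins, filament proteins in the wall of the doublet, included the lowest log2 change of the set in OVA lungs. Tekt4 (ENSMUSG00000024175.1, chromosome 17, 25471590 to 25476594) had 0, 6.03, 14.7, 16.3 and 7.04 in OVA_Rg3 lungs, 1.83, 6.46, 10.1, 3.84 and 1.98 in OVA lungs and 27, 17.9, 30.0, 24.0 and 18.6 in control lungs. Its log2 change was -2.24 ± 0.62 (SE) in OVA lungs (limma adjusted p = 0.0236), which was called, and -1.81 ± 0.62 (SE) in OVA_Rg3 lungs (limma adjusted p = 0.0773), which was not. The groups did not overlap with control in either comparison. Tekt2 was lower in both comparisons, at -1.91 and -2.01. Tekt1 had 0, 8.31, 19.1, 20.1 and 11.4 in OVA_Rg3 lungs, 5.20, 14.9, 18.6, 10.02 and 10.7 in OVA lungs and 40.3, 31.4, 42.3, 40.7 and 27.1 in control lungs, with every control library above the others. Its log2 changes of -1.62 and -2.09 did not pass (limma adjusted p = 0.097 and 0.0515), with an SE of 0.63 each. Tekt1, Tekt2 and Tekt4 were each listed at 0 in OVA_Rg3 1. Tekt3 and Tekt5 were not tested. Tekt3 was listed at 0 in 5 libraries and lay at 0.56 to 1.12 in control lungs, and Tekt5, a tektin of sperm, was at 0 to 1.92 in OVA_Rg3 lungs, 0.31 to 0.93 in OVA lungs and 0 to 1.04 in control lungs.

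Of the 6 other tested Cfap genes, Cfap58, Cfap70 and Cfap157 fell in both comparisons and Cfap77 in OVA lungs. Cfap157, a protein of the basal body and axoneme, had 4.16, 3.54, 7.07, 8.65 and 3.80 in OVA_Rg3 lungs, 1.97, 4.80, 7.07, 2.75 and 1.26 in OVA lungs and 16.8, 10.9, 17.3, 15.6 and 8.22 in control lungs, and changed by -1.80 and -1.22. OVA_Rg3 4 lay above control 5 there, and the OVA libraries lay below control. Cfap97 was the gene above 0 in both comparisons, though below 0 in the values as deposited (-0.56 and -0.16), with 1.94, 3.27, 4.05, 3.65 and 2.27 in OVA_Rg3 lungs, 2.57, 3.23, 1.87, 2.65 and 3.09 in OVA lungs and 3.22, 2.95, 0.84, 3.53 and 2.93 in control lungs. Its groups overlapped and its log2 changes were 0.05 ± 0.24 (SE) and 0.16 ± 0.24 (SE) (limma adjusted p = 0.927 and 0.72). Cfap36 had 8.96, 9.58, 10.5, 15.1 and 11.1 in OVA_Rg3 lungs, 10.1, 11.0, 20.3, 11.0 and 10.7 in OVA lungs and 17.8, 14.1, 21.8, 17.8 and 16.6 in control lungs. Its log2 changes were -0.49 and -0.64 (limma adjusted p = 0.106 and 0.052). It was close to the threshold in OVA_Rg3 lungs, where 1 library reached the control range. Cfap99 was not tested and was listed at 0 in 6 libraries.

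Rg3 was given to ask whether it alters the allergic lung, and none of the 52 tested genes was called between OVA_Rg3 and OVA lungs. In that comparison limma called 0 of all 12137 genes (0.0%), with 1045 at an unadjusted p under 0.05 and a smallest adjusted p of 0.0824. The median log2 change of the axoneme genes was 0.03, beside 0.02 over all genes, and 25 of the 52 were below 0. Among the alternatives other than leaving out 1 library at a time, 5 called genes outside the axoneme set here, namely array weights (2), quantile normalization (1), a pseudocount of 0.1 (1), the fit without the 3 libraries with transcripts of other organs (1) and the values as deposited without the 2 shallowest libraries (4). All of them called 0 axoneme genes. Cfap45 and Cfap61 were the axoneme genes at an unadjusted p under 0.05, 2 of the 52 beside 1045 of all 12137 genes. Cfap45 had 4.04, 1.78, 3.73, 3.05 and 2.69 in OVA_Rg3 lungs, 0.89, 2.12, 3.29, 1.11 and 1.06 in OVA lungs and 6.17, 7.20, 8.46, 9.35 and 4.69 in control lungs. The OVA_Rg3 values began above most OVA values but overlapped with OVA 2 and OVA 3. The highest of them, 4.04 in OVA_Rg3 1, rests on few reads, since 1 read on 1 kb is worth 4.61 FPKM there. Its log2 change was 0.64 ± 0.25 (SE) (limma adjusted p = 0.543), and that of Cfap61 was 0.48 ± 0.20 (SE) (limma adjusted p = 0.562). At the other end, Rsph3b had -0.83 ± 0.45 (SE) (limma adjusted p = 0.628), with its 0 in OVA_Rg3 1. SEs of single genes ran from 0.18 for Dnah7b to 0.63 for Tekt1. A difference larger than its SE can stay uncalled, so the comparison leaves room for differences above these in either direction.

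The genes moved together from library to library. The mean log2 value over the 52, minus that of control lungs, was -2.40, -1.52, -0.74, -0.76 and -1.34 in OVA_Rg3 libraries 1 to 5. It was -1.92, -0.96, -0.76, -1.53 and -1.71 in OVA libraries 1 to 5 and 0.01, 0.04, 0.26, 0.14 and -0.45 in control libraries 1 to 5. Every OVA and OVA_Rg3 library lay below every control library by this mean, and the spread inside each OVA group was more than the gap between the OVA groups. OVA_Rg3 1 held the lowest value of its group for 41 of the 52 genes, OVA 1 for 27 and control 5 for 45. OVA_Rg3 4 held the highest for 27, OVA 3 for 35 and control 3 for 33. These counts describe levels in a library and were not tested.

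Foxj1, the master transcription factor of motile cilia, had 14.8, 23.1, 53.1, 44.0 and 30.9 in OVA_Rg3 lungs, 12.8, 48.1, 48.9, 20.3 and 23.0 in OVA lungs and 88.0, 204, 116, 97.9 and 56.4 in control lungs. It was low in the libraries where the axoneme genes were low, OVA_Rg3 1 and OVA 1 first, and highest in control 2, where the axoneme genes on average were not. Its log2 change was -1.89 ± 0.42 (SE) in OVA lungs and -1.74 ± 0.42 (SE) in OVA_Rg3 lungs (limma adjusted p = 0.00821 and 0.0223). Of 8 transcription factors and regulators of multiciliated cells, 7 were tested, and 6 fell in OVA lungs and 4 in OVA_Rg3 lungs. Among them Gmnc and Rfx3 were tested only through their control libraries, so their calls are given as a description. Gmnc, which starts the multiciliated fate, changed by -1.32 and -1.19, and Myb, an early regulator of it, by -1.44 and -1.38, all called. Rfx3, an X-box binding factor, fell in OVA lungs by 0.71 (limma adjusted p = 0.0351), and had -0.54 in OVA_Rg3 lungs (limma adjusted p = 0.121). Rfx2 was called in neither, at -0.82 and -1.08.

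Genes of motile cilia with other symbols showed the same direction. A list of 41 such genes was taken for a known link to the axoneme, its assembly or motile cilia, and 38 were tested. Of these, 28 fell in OVA lungs (median log2 change -1.60) and 27 in OVA_Rg3 lungs (median -1.38), with 0 higher. They include the dynein intermediate chains under their older symbols, which the prefix rule does not reach. Dnaic1 had 0, 4.43, 7.19, 7.03 and 4.00 in OVA_Rg3 lungs, 1.79, 6.32, 7.34, 2.89 and 3.15 in OVA lungs and 16.9, 13.2, 19.7, 18.1 and 12.2 in control lungs, with control above the other groups, and changed by -1.78 and -1.91. Dnaic2 changed by -1.54 and -1.02, also called in both. Of this list, Dnaic2, Armc4 and Iqub were tested only through their control libraries, and their calls are given as a description. Ccdc151, which docks outer arms, changed by -2.0 ± 0.31 (SE) and -1.50 ± 0.31 (SE) (limma adjusted p = 0.00141 and 0.0135). Ccdc39, the ruler that sets the spacing of spokes and inner arms, changed by -1.79 and -1.84, both called. Its partner Ccdc40 had -0.40 and -0.17, neither called, and Spag17, a central pair protein, had -0.36 and -0.61, neither called.

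Markers of ciliated cells and of other airway cells moved beside the axoneme genes. Of 9 ciliated cell markers, 6 fell in OVA and 7 in OVA_Rg3 lungs. Among these markers, Foxj1 and Dynlrb2 were already counted in the lists above. The summed scaled FPKM of the ciliated cell markers was 297 to 1045 in OVA_Rg3 lungs, 321 to 1312 in OVA lungs and 1206 to 2075 in control lungs. Of 7 club cell markers, 6 fell in OVA and 3 in OVA_Rg3 lungs. Their sums were 16677 to 44137, 23141 to 65053 and 46154 to 199782 in OVA_Rg3, OVA and control lungs. Most of each sum was Scgb1a1, such as 61527 of the 65053 in OVA 2. Scgb1a1 itself was called in neither comparison, at -1.22 in OVA and -1.39 in OVA_Rg3 lungs (limma adjusted p = 0.0843 and 0.068). General epithelial markers (Epcam, Cdh1, Krt8, Krt18 and Krt19) fell for 4 of 5 in OVA and 3 of 5 in OVA_Rg3 lungs, with sums of 208 to 389, 202 to 382 and 539 to 706. Alveolar type 2 markers fell for 1 of 6 and 0 of 6, with sums of 2939 to 6001, 1749 to 8736 and 2632 to 4473. Endothelial markers had 0 lower, and 3 of 4 rose in OVA_Rg3 lungs, with sums of 71.7 to 198, 48.3 to 94.0 and 30.7 to 65.5. Leukocyte markers had 2 of 3 tested genes higher in OVA and 0 of 3 in OVA_Rg3 lungs, and alveolar type 1 markers 1 of 5 lower in each. No marker of these lists was at 0 throughout a group. The part of these shifts in the axoneme result was not tested.

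**Figure D4:**
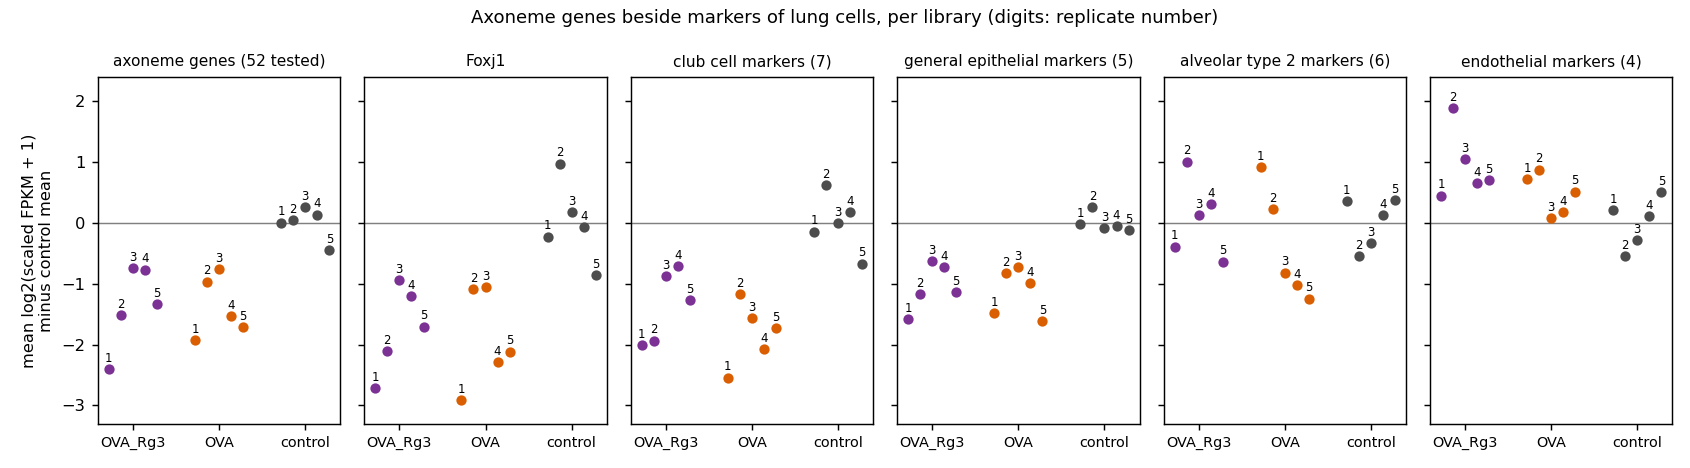
Mean log2(scaled FPKM + 1) minus the control mean for the 52 axoneme genes, Foxj1 and 4 marker lists, with 1 point per library and its replicate number. Axoneme genes span -2.40 to -0.74 in OVA_Rg3, -1.92 to -0.76 in OVA and -0.45 to 0.26 in control lungs. Club and general epithelial markers are also low in both OVA groups, while endothelial markers span 0.45 to 1.89, 0.08 to 0.88 and -0.55 to 0.50.

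The scaling set the size of these changes but not their direction for the axoneme genes, other than Cfap97. In the values as deposited, before scaling, 51 of the 52 were called lower in OVA lungs (median log2 change -2.15) and 50 in OVA_Rg3 lungs (median -1.74). All genes tested shifted with them there, by medians of -0.73 and -0.43, and 51.2% and 15.8% of all genes were called lower. Relative to those medians the axoneme genes stood about as low as after scaling. With OVA lungs, 36 of the 52 had 5 values all below the 5 control values, where 11.3% of all genes did, and OVA_Rg3 lungs also had 36, where 8.49% did. Of these, 28 and 27 were among the 42 genes that did not need control to pass the filter. The count of 39 calls at an adjusted p under 0.05 in OVA_Rg3 lungs depended on single libraries. It was 5 without control 3, 10 without control 4, 15 without OVA_Rg3 5 and 18 without OVA_Rg3 2 or control 1. The median log2 change stayed between -1.50 and -1.14. The share of all genes called was not counted in these fits. A loss of calls particular to the axoneme genes therefore cannot be told apart from a loss over all genes.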

How the data were processed

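The deposited table gives 1 value per gene and library for 15 libraries, all of which were used. Its header names no unit. The values are taken as FPKM made by the authors, inferred from the values, and TPM over a larger gene set could not be told apart. The submitters' processing notes name Trimmomatic, featureCounts, GRCm39 and mm39 with no versions or roles. The table's coordinates match GRCm38, since 13545 of 14766 genes (51 of the 58 axoneme genes) have the coordinates of GENCODE M21 of that build, and positions are given on it. No read counts were used. Depth was read from the step that 1 read makes in low values of 1768 genes of 1 transcript. Of these values 29.6% to 47.4% were whole multiples of the step to within 0.04 of it, where chance gives 8%, and the depths and 3-read floors cover counting error only.

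Values were divided by median-ratio factors from the 6365 genes of at least 1 in all libraries. A log2 of the scaled value plus 1 was tested with limma 3.58.1 in R 4.3.3 (1 mean per group, trend, robust), which was also tested on simulated data. Calls had a Benjamini-Hochberg adjusted p under 0.05 over 12137 genes of at least 1 in at least 5 libraries. Changes on this scale understate those of low genes. Tables, promoter searches and plots used Python 3.11.15 with matplotlib 3.10.9, pandas 2.3.3 and numpy 2.4.6.

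The genes, their division into 10 structures and all lists were chosen with earlier results of these data known. Members named by rule, 39 in number, were the 3 of highest mean in each structure, those of smallest p or of lowest or highest change per comparison, and they entered all alternatives. The other members were named for completeness after their values were seen. The replicate numbers of the labels were not used to pair the libraries, other than in the replicate block. Alternatives were the values as deposited, quantile normalization, a pseudocount of 0.1, other filters, only the groups compared, array weights, the replicate block and libraries left out. Scaling on the 10246 genes above 0 in all libraries, and the deposited values without the 2 shallowest libraries, were added after seeing the data.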

Additional observations from a re-analysis of the deposited data

Results flagged for a closer look

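In 5 of 117 group ranges examined (39 genes in 3 groups), 1 library stood far from the other 4 of its group. Chance flags about 1 in 20 such ranges, and the causes were not tested. Cfap126 had 47.13 scaled FPKM in OVA_Rg3 3, against 18.2 to 24.2 in the other OVA_Rg3 lungs. Cfap36 had 20.28 in OVA 3, against 10.1 to 11.0 in the other OVA lungs, and OVA 3 was also the OVA library with the highest value for 35 of 52 axoneme genes. Cfap77 had 8.195 in OVA_Rg3 1, against 2.13 to 3.28 in the other OVA_Rg3 lungs, although most axoneme genes were lowest there. In that library 1 read on 1 kb is worth 4.61 FPKM. The deposited 7.48 of Cfap77, whose longest transcript has 1841 bases, thus rests on few reads. Cfap97 had 0.8384 in control 3, against 2.93 to 3.53 in the other control lungs, although control 3 held the highest value for 33 axoneme genes. Rsph3b was listed at 0 in OVA_Rg3 1, the shallowest library, against 5.65 to 6.72 in the other OVA_Rg3 lungs. For Rsph3b 3 reads would give 6.75 in that library, so the 0 was not distinguishable from the other values at this depth.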

How the results depend on the processing

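Among the 39 genes named by rule, no called value took the other sign under the alternatives run. Among values that were not called, Cfap97 took the other sign in 4 settings in OVA lungs (-0.56 as deposited, against 0.05) and in 3 in OVA_Rg3 lungs, and 27 of the named genes did so at least once between OVA_Rg3 and OVA lungs, in 124 values. With a pseudocount of 0.1, 21 axoneme genes fell in OVA lungs and 9 in OVA_Rg3 lungs, in place of 41 and 39. Over all 12137 genes, 902 and 282 fell there, in place of 1278 and 716. In the values as deposited the median log2 change in OVA lungs was -2.15, and -2.20 without the 2 shallowest libraries. The split of all calls moved with the scaling: 66.1% of calls in OVA lungs were lower after median-ratio scaling, 98.9% as deposited and 55.5% after quantile normalization. In OVA_Rg3 lungs these shares were 66.2%, 95.3% and 59.6%. Leaving out each library in turn gave 28 to 47 genes lower in OVA lungs, 5 to 43 in OVA_Rg3 lungs and 0 between OVA_Rg3 and OVA. The share of all genes called was not counted in these fits. The count in OVA_Rg3 lungs fell by more than 1.5 times without control 3 (5), control 4 (10), OVA_Rg3 5 (15), OVA_Rg3 2 (18), control 1 (18) or control 2 (25). Median log2 changes then ran from -1.67 to -1.27, from -1.50 to -1.14 and from -0.15 to 0.27. Without the 3 libraries with transcripts of other organs, 41 genes fell in OVA lungs and 27 in OVA_Rg3 lungs, where 1661 and 633 of all 11800 genes fell. With the replicate number as a replicate block the counts were 42, 44 and 0, where 1232, 782 and 0 of all 12137 genes fell. Same-numbered libraries correlated between -0.39 and 0.33 in their deviations, and different-numbered OVA_Rg3 and OVA libraries between -0.30 and 0.40. Between OVA_Rg3 and OVA the median was 0.16 for same and -0.07 for different numbers. These ranges overlap, so the numbers were not used to pair libraries elsewhere, and pairing is not excluded. Over the named genes, calls were lost in 72 gene-by-setting values in OVA lungs and in 149 in OVA_Rg3 lungs, and gained in 42 and 55. Beside the genes noted above, Cfap221 lost its call in OVA lungs in 8 of 27 settings, Tekt2 in 7, and Dnah6 and Tekt4 in 6. In OVA_Rg3 lungs Cfap43 and Cfap161 lost theirs in 10, and Cfap157, Cfap221 and Dnah6 in 9. Cfap65, Cfap206, Dnaaf5, Rsph1 and Tekt2 did so there in 8. The cause of these shifts was not tested. Depth limits OVA_Rg3 1 most, where 3 reads on a transcript of 1 kb are worth 13.8 FPKM, against 0.33 in control 1.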
